A study of Mus musculus with 10 samples.

Results

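Splenic dendritic cells (DCs) of wild-type (WT) mice were profiled 4 h after an injection of CpG, and this comparison rests on 5 of the series' 10 arrays. They are the 3 arrays whose source label names CpG-stimulated WT DCs and the 2 whose label names unstimulated WT DCs. Mice received 100 µg CpG or vehicle, and CD11c+ cells were taken from the spleen with magnetic beads and placed in Trizol at once. The other 5 arrays hold DCs of mice that lack the complement receptors C3ar1 and C5ar1 (C3ar1-/-C5ar1-/-, here DKO), 2 without stimulation and 3 after CpG. The sources used here do not give the mouse strain, age or sex, or whether 1 array stands for 1 mouse or for a pool. Nothing states that arrays of a group came from separate animals, so p-values measure only the spread between these samples, which may be technical. Beads coated for CD11c enrich for DCs of every subset and also retain other CD11c+ cells.

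CpG oligonucleotides carry unmethylated CG motifs that endosomal Tlr9 recognises. Tlr9 signals through the adaptor Myd88 to NF-kB, MAP kinases and interferon regulatory factors, which switch on cytokines, type I interferon and costimulatory molecules. In the spleen, conventional DCs are divided into cDC1, which take up dead cells and cross-present antigen, and cDC2, which mainly activate helper T cells. A mature DC takes up less antigen, changes its shape and position and engages T cells, and in a living mouse it also sees the cytokines made by its neighbours.

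The deposited values are log2 intensities, so a change of 1 is a 2-fold difference. Of 21994 genes with a probe set of a single symbol, 13298 were above the median of an array in at least 2 of the 10 arrays and were tested. CpG changed 2873 of them (21.6%) at an adjusted p under 0.05 in limma, of which 1096 rose (8.24% of the genes tested) and 1777 fell (13.4%). At least 2-fold changes were found in 825 genes (6.2%), 416 up (3.13%) and 409 down (3.08%), so the smaller changes were mostly falls. Each change is given below as CpG minus unstimulated on the log2 scale, ± the standard error of that difference (3 against 2 arrays), and adjusted p-values are those of limma with the Benjamini-Hochberg method. At an unadjusted p under 0.05 the test gave 4342 genes (32.7%). In all 2873 called genes the CpG arrays lay wholly on 1 side of both unstimulated arrays, as they also did in 52.4% of all tested genes. The median change of all tested genes was -0.04.

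The balance of rises and falls depends on the scale. Centring each array on the median of the tested genes moved the median change by 0.13, to 0.09, and gave 1699 rises (12.8%) and 1157 falls (8.7%). Quantile normalisation gave 1263 rises (9.5%) and 1519 falls (11.4%). In all 3 scalings 1045 genes rose (7.86%) and 1157 fell (8.7%). Each unstimulated array carried much of the test. Without WT unstimulated 1 the calls numbered 1412 (601 risen, 811 fallen) and without WT unstimulated 2 they numbered 1273 (514 risen, 759 fallen). Any single WT array could be left out for 945 genes (7.11%), 412 risen (3.1%) and 533 fallen (4.01%), and the genes named below are of this kind unless a value without an array is given beside them.

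**Figure D1:**
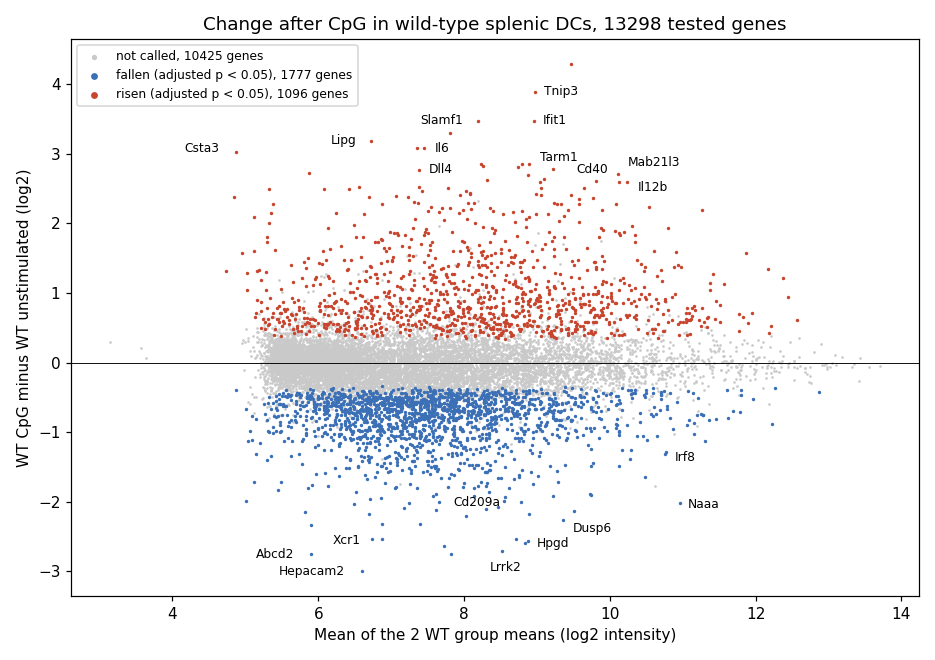
Change after CpG in WT DCs (log2, CpG minus unstimulated) against the mean of both group means (log2 intensity); each point is 1 of 13298 tested genes. The 1096 risen genes (red) and 1777 fallen genes (blue) lie at all levels, with Tnip3 among the highest rises and Hepacam2 as the lowest fall.

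Genes of CpG sensing changed in both directions. The median change of 34 tested genes of CpG sensing and nucleic acid handling was 0.04. Of them 5 rose and 6 fell (32.4%, against 21.6% of all tested genes). These counts changed to 3 rises and 2 falls when WT unstimulated 2 was left out. Myd88, the adaptor of Tlr9, measured 9.9 and 9.98 in unstimulated DCs and 10.94, 10.72 and 10.88 after CpG, a rise of 0.91 ± 0.13 (adjusted p = 0.00107). Map3k8, the kinase that leads from NF-kB signalling to ERK, rose by 0.98 ± 0.18, and Pik3ap1, an adaptor that couples Toll-like receptors to PI3 kinase, rose by 0.76 ± 0.13. The largest change of this list was a fall. Rab7b, a GTPase of late endosomes that limits Tlr9 signalling, measured 8.96 and 9.13 in unstimulated DCs and 6.38, 6.62 and 6.24 after CpG. All 3 CpG arrays were far below both unstimulated arrays, and the change was -2.63 ± 0.25 (adjusted p = 0.000118), or 6.19-fold lower. Pld4, an endosomal exonuclease that degrades single-stranded DNA, fell with it (-0.76 ± 0.11). Tlr9 itself measured 9.87 and 9.83 in unstimulated DCs and 10.34, 9.95 and 10.53 after CpG, and its difference of 0.43 ± 0.19 did not pass (adjusted p = 0.138).

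Interferon-stimulated genes, which carry antiviral defence, had the highest share of calls of any list (88.4%). Of 43 tested, 38 rose and none fell (0 at an unadjusted p under 0.05), with a median change of 1.88 against -0.04 for all tested genes. Ifit1, which binds foreign RNA caps, measured 7.77 and 6.67 in unstimulated DCs and 10.6, 10.48 and 10.99 after CpG, and its change of 3.47 ± 0.5 (adjusted p = 0.000898) is an 11.1-fold rise. The 2 unstimulated arrays differed by 1.09 for this gene, more than the 3 CpG arrays did (0.51). Among the 2'-5' oligoadenylate synthetase family, whose products activate RNase L, Oas1g rose by 2.81 ± 0.38 and Oas2 by 2.61 ± 0.4. Oasl1, a relative that holds back translation of Irf7, rose by 2.69 ± 0.38. Eif2ak2, the double-stranded RNA kinase PKR that halts translation, rose by 2.18 ± 0.27. Gbp5, a guanylate-binding protein that acts in inflammasome activation, measured 8.15 and 7.51 in unstimulated DCs and 10.61, 10.37 and 10.89 after CpG, with a change of 2.79 ± 0.31 (adjusted p = 0.000251). Ifitm2, a membrane protein that blocks virus entry, rose by 1.58 ± 0.15.

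Members of families known from the interferon response changed in both directions. In the PARP family, enzymes that attach ADP-ribose, Parp14 rose by 1.9, Parp12 by 1.86 and Parp9 by 1.55. The DNA-repair member Parp1 fell by 0.9 and Parp8 by 0.82, and in all 4 of the 14 tested PARP genes rose and 3 fell. Schlafen genes, which restrain growth and viral replication, had 4 rises and no fall (0 at an unadjusted p under 0.05) among 7 tested, with Slfn2 at 1.89 ± 0.17, Slfn5 at 1.81 ± 0.21 and Slfn8 at 1.45 ± 0.19. Of 41 TRIM proteins, ubiquitin ligases of which many act in antiviral defence, 8 rose and 6 fell. Among them 7 rose and 3 fell when WT CpG 1 was left out, 7 and 3 for WT CpG 2, 4 and 2 for WT unstimulated 1, and 4 and 2 for WT unstimulated 2. Centring the arrays gave 8 rises and 3 falls. Quantile normalisation gave 8 rises and 3 falls. The rises were led by Trim30a (1.95 ± 0.27), Trim30c (2.16 ± 0.34) and Trim30d (1.83 ± 0.31), near-identical genes whose probes may share signal. Trim37 changed the other way, by -1.47 ± 0.21, as did Trim8, by -1.12 ± 0.11. Ifnb1 was the 1 called gene among 11 tested interferon genes and was measured near background, at 4.16 and 3.98 in unstimulated DCs and 5.87, 5.74 and 4.55 after CpG (1.31 ± 0.4, adjusted p = 0.0404). Its call was lost without any of 4 arrays, at 1.07 (adjusted p = 0.128) without WT CpG 1, 1.14 (adjusted p = 0.118) without WT CpG 2, 1.4 (adjusted p = 0.14) without WT unstimulated 1, and 1.22 (adjusted p = 0.196) without WT unstimulated 2.

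The promoters of risen genes held interferon response letters more often than others did. RefSeq's table (GRCm38.p6) gives 250 bases before and 50 after the start for 10448 of the tested genes, and each motif was searched on both strands. The interferon-stimulated response element, ISRE, was searched as GAAA, any 2 bases and GAAA. It was present in 3.84% of all tested genes with a promoter, in 10.2% of risen genes and in 2.7% of fallen genes. Of genes changed at least 2-fold it was in 16.6% of the risen and 4.14% of the fallen. Seen the other way, 21.7% of the 401 genes that held it rose, against 7.63% of the 10047 that did not. The kappa B site, searched as GGGA, any base and TTTCC, was rare at 0.555% of all, and was in 1.17% of risen and 0.54% of fallen genes. At least 2-fold changes did not keep this order, with the site in 1.21% of the risen (4 genes) and 1.48% of the fallen (5 genes). The sequences below are those of genes whose change was large, with the matched letters in capitals, so that the number and spacing of matches can be compared. They run from 5′ to 3′ along the gene's strand, and they were picked after the values of the genes were seen.
Ifit1, ISRE, chr19:34640765-34640833, plus strand: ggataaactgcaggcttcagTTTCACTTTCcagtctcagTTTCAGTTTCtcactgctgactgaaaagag
Isg15, ISRE, chr4:156200855-156200916, minus strand: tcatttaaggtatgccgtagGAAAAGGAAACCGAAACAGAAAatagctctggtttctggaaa
Oas1g, ISRE, chr5:120887596-120887651, minus strand: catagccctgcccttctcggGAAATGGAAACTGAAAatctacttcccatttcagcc
Cxcl10, ISRE, chr5:92349073-92349122, minus strand: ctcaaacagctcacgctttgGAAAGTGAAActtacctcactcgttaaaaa
Gbp5, ISRE then kappa B, chr3:142496749-142496886, plus strand: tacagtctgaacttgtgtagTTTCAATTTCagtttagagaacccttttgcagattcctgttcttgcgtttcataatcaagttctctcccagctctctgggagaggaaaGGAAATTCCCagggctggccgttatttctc
Il6, kappa B, chr5:30013050-30013099, plus strand: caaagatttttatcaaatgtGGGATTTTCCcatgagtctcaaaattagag
Tlr11, ISRE, chr14:50357772-50357821, plus strand: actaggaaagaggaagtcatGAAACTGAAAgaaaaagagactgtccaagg
Cdc6, E2F, chr11:98907993-98908040, plus strand: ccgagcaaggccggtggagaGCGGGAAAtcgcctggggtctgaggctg

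Ifit1 holds a pair of ISRE matches on the other strand, 104 and 85 bases before the start (first base of each match). Isg15, the ubiquitin-like modifier chosen here for its sequence, holds 3 overlapping matches that begin 78, 72 and 66 bases before it, and its level rose by 2.24 ± 0.32 (adjusted p = 0.000852). Oas1g holds 2 overlapping matches at 18 and 12 bases. Cxcl10 has 1 match at 213 bases and rose by 2.46 ± 0.41, while Gbp5 has an ISRE match at 165 bases and a kappa B match at 77 bases. Il6, with its kappa B match at 44 bases, rose by 3.09 ± 0.27. Among fallen genes, Tlr11, a receptor for parasite profilin, has an ISRE match at 122 bases and fell by 2.2. The E2F site, searched as TTTCCCGC, was in 3.11% of fallen and 1.76% of risen genes against 2.26% of all, and Cdc6, a DNA replication factor that fell by 1.08, holds it on the other strand at 138 bases. The AP-1 site TGANTCA was in 8.78% of risen, 5.87% of fallen and 6.74% of all. A PU.1-type ETS site, GAGGAAGT, was in 5.74% of risen and 5% of fallen genes against 3.81% of all. For at least 2-fold changes its shares were 5.44% of risen and 6.51% of fallen genes. The STAT-type TTCNNNGAA was in 10.8% of risen and 6.55% of fallen genes against 8.19% of all. The composite ETS and IRF element, GGAA, any 2 bases and GAAA, whose letters can overlap an ISRE match, was in 4.33% of risen, 3.17% of fallen and 2.9% of all. Genes risen and fallen at least 2-fold held the composite element at nearly the same share (6.34% and 6.21%). For the E-box CACGTG and the cAMP response element TGACGTCA the shares of risen genes (11.4% and 3.28%) were close to those of all genes (11.2% and 3.28%). These matches describe letters, not bound sites.

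**Figure D2:**
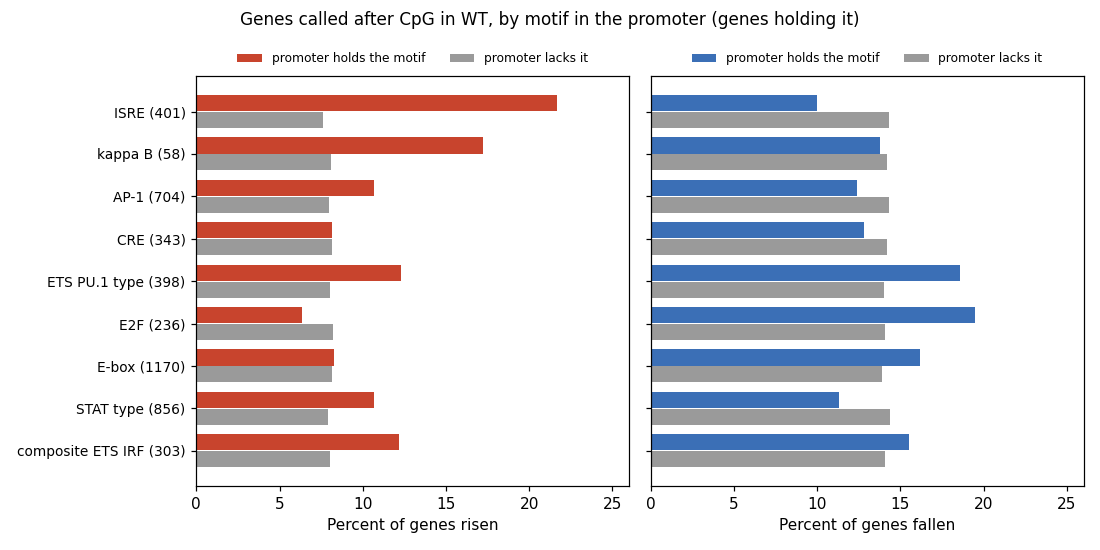
Percent of tested genes that rose (left) or fell (right) after CpG among genes whose promoter holds a motif (coloured bars, number of genes in brackets) and among those whose promoter lacks it (grey bars). Of genes with the ISRE letters 21.7% rose, against 7.63% of the others, and of genes with the E2F letters 19.5% fell, against 14.1%.

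NF-kB and TNF target genes rose nearly as uniformly as interferon-stimulated genes. Of 44 tested, 35 rose and none fell (0 at an unadjusted p under 0.05), with a median of 0.96. Tnip3, an inhibitor of NF-kB that binds A20, had the largest rise of the list. It measured 7.77 and 6.29 in unstimulated DCs and 10.89, 10.92 and 10.93 after CpG, and the 3 CpG arrays spanned only 0.04. Cytokines were among the largest rises, with Il6, an inducer of fever and of plasma cell growth, at 6.31 and 5.51 in unstimulated DCs and 9.12, 9.15 and 8.72 after CpG. Il27, the p28 chain of interleukin-27, measured 7.64 and 7.09 in unstimulated DCs and 10.02, 10.23 and 10.4 after CpG, a change of 2.85 ± 0.22 (adjusted p = 5.62e-05). Il10, the inhibitory cytokine, measured 5.96 and 5.48 in unstimulated DCs and 6.84, 7.09 and 6.21 after CpG and rose by 1.0 ± 0.32 (adjusted p = 0.0466), and its call was lost without 4 of the arrays, at 0.94 (adjusted p = 0.122) without WT CpG 1, 0.81 (adjusted p = 0.14) without WT CpG 2, 1.24 (adjusted p = 0.0888) without WT unstimulated 1, and 0.76 (adjusted p = 0.291) without WT unstimulated 2. The chemokines Ccl17 and Ccl22, ligands of Ccr4 on T cells, rose by 2.53 ± 0.24 and 1.83 ± 0.15. Cxcl3, a ligand of the neutrophil receptor Cxcr2, rose by 2.72 ± 0.51, with WT CpG 3 over 1 lower than the other CpG arrays (4.73 and 4.29 in unstimulated DCs and 7.76, 7.6 and 6.31 after CpG). Cxcl9, a ligand of Cxcr3 on T cells, rose by 0.88 ± 0.17.

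Inhibitors of cytokine signalling rose more often than they fell. Of 18 inhibitors of cytokine signalling, 7 rose and 3 fell. The test gave 6 rises and 1 fall when WT CpG 2 was left out, 5 and 0 for WT unstimulated 1, and 4 and 0 for WT unstimulated 2. After centring, 8 rose and 1 fell. Usp18, which removes Isg15 from proteins and damps the interferon receptor, measured 9.26 and 8.65 in unstimulated DCs and 11.2, 10.95 and 11.54 after CpG, a change of 2.28 ± 0.33. Ptpn1 and Ptpn2, phosphatases of JAK kinases, rose by 1.7 ± 0.14 and 1.18 ± 0.12, and Socs1, which blocks JAK kinases, rose by 1.23 ± 0.16. Messenger RNA decay factors were split, with 5 risen and 5 fallen of 34 tested (29.4%, against 21.6% of all tested genes). In refits, 4 rose and 2 fell when WT unstimulated 2 was left out. Zc3h12a (Regnase-1), an RNase that cuts Il6 mRNA, rose by 0.56 ± 0.1 and its relative Zc3h12d by 1.14 ± 0.19. Arid5a, which protects Il6 mRNA from that RNase, also rose (1.28 ± 0.18). Zfp36l2, which directs AU-rich mRNAs to decay, fell by 1.26 (adjusted p = 0.00174). Dusp6, the phosphatase that switches off ERK, measured 10.44 and 10.54 in unstimulated DCs and 8.36, 8.3 and 8.05 after CpG, a change of -2.26 ± 0.13 (adjusted p = 2.62e-05).

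Transcription factors changed in both directions, and the falls included factors of DC identity. In the IRF and STAT families 7 of 13 rose and 1 fell. In single refits 4 rose and 1 fell when WT unstimulated 2 was left out. Stat5a rose by 1.64 ± 0.19, Stat2, part of the interferon-activated complex, by 1.6 ± 0.3 and Stat3 by 1.05 ± 0.11. The 1 fall was Irf8, the factor on which cDC1 depend, which measured 11.34 and 11.5 in unstimulated DCs and 10.18, 10.17 and 9.95 after CpG. Both unstimulated arrays were above all CpG arrays, with a change of -1.32 ± 0.16 (adjusted p = 0.000402). Batf, an AP-1 partner of IRF factors, measured 8.09 and 7.61 in unstimulated DCs and 10.3, 10.39 and 10.09 after CpG, a rise of 2.41 ± 0.24 (adjusted p = 0.000144). Other AP-1 and CREB family members that rose were Creb5 (1.73 ± 0.16), Jdp2 (1.09 ± 0.14) and Atf6, a sensor of unfolded proteins (0.53 ± 0.1), whereas Fosb (-0.81 ± 0.11) and Atf7 (-0.52 ± 0.1) fell. In all, 5 of 32 in these families rose and 5 fell (31.2%, against 21.6% of all tested genes). Of these, 4 rose and 2 fell when WT unstimulated 2 was left out. On centred arrays 7 rose and 4 fell.

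Among 73 other transcription factors of blood cells, 16 rose and 14 fell. The same list had 11 rises and 7 falls when WT unstimulated 2 was left out. Centred arrays gave 19 rises and 10 falls. Prdm1 (Blimp-1), a repressor known from plasma cells and from tolerance in DCs, rose by 1.69 ± 0.19. Ikzf4 (Eos) rose by 1.18 ± 0.14, Etv3, a repressor induced by Stat3, by 1.08 ± 0.15, and Pou2f2 (Oct2) by 0.9 ± 0.11. Mef2c, a factor of lymphoid and DC development, measured 7.53 and 7.49 in unstimulated DCs and 5.95, 5.56 and 6.01 after CpG and fell by 1.67 (adjusted p = 0.000765). Lyl1, a basic helix-loop-helix factor of progenitors, fell by 1.36, and Nr4a2, an orphan nuclear receptor, fell by 0.94. Spi1 (PU.1), the master factor of myeloid cells, changed by -0.06 ± 0.1 and Myc by 0.28 ± 0.19. Neither passed (adjusted p = 0.734 and 0.36).

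Slamf1, Cd40, Cd274 and Pdcd1lg2, taken here as single genes and not as a list, rose after CpG, and receptors for interleukins changed in both directions. Slamf1, a self-ligand of lymphocytes, measured 6.99 and 5.91 in unstimulated DCs and 9.7, 10.04 and 10.05 after CpG, a rise of 3.48 ± 0.27 (adjusted p = 5.62e-05). Cd40, the receptor for CD40 ligand of helper T cells, measured 9.24 and 8.43 in unstimulated DCs and 11.48, 11.39 and 11.41 after CpG. The inhibitory ligands Cd274 (PD-L1) and Pdcd1lg2 (PD-L2) rose together, by 1.34 ± 0.11 and 2.44 ± 0.16. Of 40 interleukin and related receptors 13 rose and 4 fell. The counts became 8 rises and 4 falls when WT CpG 1 was left out, 7 and 2 for WT unstimulated 1, and 7 and 2 for WT unstimulated 2. Once centred, 15 rose and 2 fell. Quantile normalisation gave 11 rises and 6 falls. Il2ra measured 7.18 and 6.82 in unstimulated DCs and 9.45, 9.67 and 9.74 after CpG, and Il15ra, which presents interleukin-15 to T and NK cells, rose by 1.88 ± 0.2. Il23r, the receptor chain for interleukin-23, rose by 2.28 ± 0.15, Il7r by 1.39 ± 0.18 and Il13ra1 by 1.03 ± 0.11. Ifngr1, the ligand-binding chain of the interferon-gamma receptor, measured 11.19 and 11.41 in unstimulated DCs and 9.73, 9.59 and 9.67 after CpG, a change of -1.64 ± 0.14 (adjusted p = 7.47e-05). Il6ra, the receptor for interleukin-6, fell by 0.98.

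Notch ligands and guidance molecules changed as well. Dll4, a Notch ligand that steers helper T cells, measured 6.51 and 5.49 in unstimulated DCs and 8.61, 9.5 and 8.2 after CpG, a 6.82-fold rise (2.77 ± 0.38). WT CpG 2 was the highest and WT CpG 3 the lowest of the CpG arrays for this gene, over 1 apart. Dtx2, a Notch regulator, rose by 1.16 ± 0.14, while Mfng and Rfng, glycosyltransferases that tune Notch receptors, fell by 1.41 and 0.78. Over the 26 tested Notch genes 4 rose and 7 fell. These counts changed to 2 rises and 6 falls when WT CpG 1 was left out, 2 and 6 for WT CpG 2, 2 and 7 for WT CpG 3, 2 and 6 for WT unstimulated 1, and 2 and 3 for WT unstimulated 2. With centred arrays 6 rose and 6 fell. Of 28 semaphorins, plexins and ephrins, 6 rose and 5 fell. Among them 5 rose and 3 fell when WT CpG 1 was left out, 5 and 2 for WT CpG 2, 2 and 2 for WT unstimulated 1, and 2 and 1 for WT unstimulated 2. Centring the arrays gave 6 rises and 3 falls. Quantile normalisation gave 6 rises and 3 falls. Nrp2, a semaphorin receptor whose polysialylated form takes part in DC migration, rose by 2.47 ± 0.21, Sema4c rose by 2.05 ± 0.36 and Sema4b fell by 1.09. In the TGF-beta and activin family 3 of 29 rose and 5 fell, a share called of 27.6% against 21.6% of all tested genes. The test gave 2 rises and 3 falls when WT CpG 1 was left out, 1 and 3 for WT unstimulated 1, and 2 and 3 for WT unstimulated 2. After centring, 5 rose and 3 fell. Quantile normalisation gave 3 rises and 3 falls. The ligand Tgfb1 fell by 1.0, its receptor Tgfbr1 by 0.91 and the induced matrix protein Tgfbi by 0.92. The activin receptor Acvr2a rose by 1.02 ± 0.14.

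**Figure D3:**
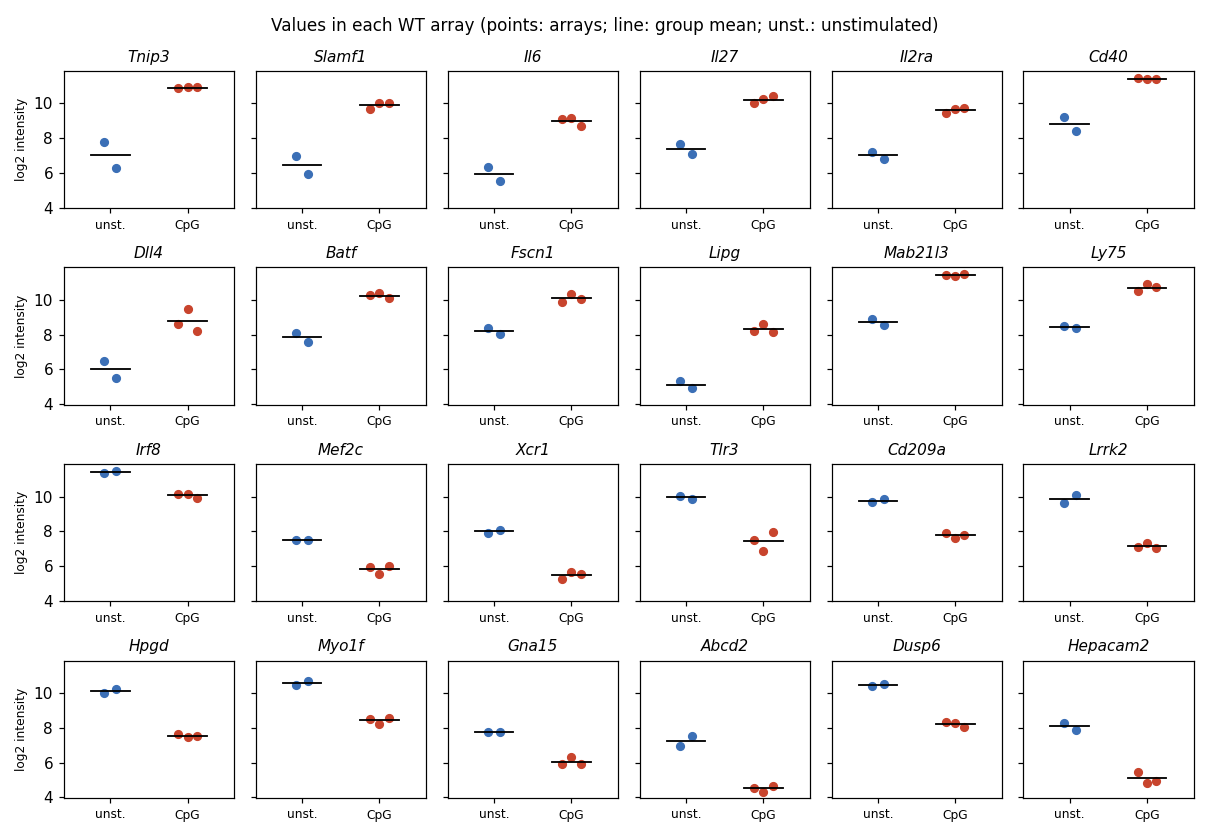
Log2 intensity of 24 genes in each WT array (blue, 2 unstimulated arrays; red, 3 CpG arrays; lines, group means). In each panel the groups are apart, and spread between CpG arrays is widest for genes such as Dll4 and Tlr3, while those of Tnip3 and Cd40 nearly coincide.

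Genes of G protein signalling, through which chemoattractant receptors act, and phosphodiesterases together fell more often than they rose. This list holds G protein subunits, regulators, cyclases and phosphodiesterases, and also subunits and anchors of protein kinase A. Of its 37 tested genes 16 fell and 4 rose, and their median change was -0.52 (-0.39 with centred arrays). In refits, 2 rose and 16 fell when WT CpG 2 was left out, 1 and 13 for WT unstimulated 1, and 1 and 10 for WT unstimulated 2. Gna15, a G alpha subunit of blood cells that couples many receptors to phospholipase C, measured 7.76 and 7.79 in unstimulated DCs and 5.91, 6.32 and 5.92 after CpG, a change of -1.73 ± 0.15 (adjusted p = 7.53e-05). Arrb1, which uncouples and internalises receptors, fell by 1.55, the cyclase Adcy7 by 1.49 and the regulators Rgs14 and Rgs3 by 1.21 and 1.06. Adcy6, another adenylyl cyclase, rose by 1.05 ± 0.16. Of 57 orphan and related receptors, 11 rose and 5 fell, a share called of 28.1% against 21.6% of all tested genes. In single refits 6 rose and 5 fell when WT CpG 1 was left out, 7 and 5 for WT CpG 2, 7 and 5 for WT CpG 3, 4 and 4 for WT unstimulated 1, and 3 and 4 for WT unstimulated 2. Gpr31b rose by 2.41 ± 0.21 and the adhesion receptor Adgrg6 by 1.75 ± 0.12, while Gpr34, a receptor for lysophosphatidylserine, fell by 2.17, Gpr141b by 1.9 and Gpr155 by 1.52.

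Fscn1, the actin bundler of mature DC dendrites, measured 8.41 and 8.03 in unstimulated DCs and 9.88, 10.36 and 10.06 after CpG, a rise of 1.88 ± 0.21 (adjusted p = 0.000269). Rnd1, a GTPase that loosens adhesion, rose by 1.87 ± 0.17 and Marcksl1, an actin-regulating membrane protein, by 1.16 ± 0.12. Myo1f, a myosin of immune cells, measured 10.46 and 10.7 in unstimulated DCs and 8.51, 8.25 and 8.57 after CpG, a change of -2.14 ± 0.23 (adjusted p = 0.000192). Was, the activator of branched actin, fell by 1.03. For Actb the change of 0.12 ± 0.11 missed the threshold (adjusted p = 0.501).

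Membrane traffic genes changed in both directions. Of 49 Rab GTPases 5 rose and 9 fell, a share called of 28.6% against 21.6% of all tested genes. Of these, 5 rose and 5 fell when WT CpG 1 was left out, 5 and 5 for WT CpG 2, 3 and 3 for WT unstimulated 1, and 4 and 3 for WT unstimulated 2. On centred arrays 7 rose and 4 fell. Rab12 rose by 1.05 ± 0.17, Rab8b by 0.99 ± 0.11 and Rab21 by 0.94 ± 0.17, while Rab38, of lysosome-related organelles, fell by 1.0 and Rab19 by 0.8. Syntaxins, VAMPs, synaptotagmins and sorting nexins had 4 rises and 12 falls among 69, a share called of 23.2% against 21.6% of all tested genes. The same list had 3 rises and 7 falls when WT unstimulated 2 was left out. Centred arrays gave 9 rises and 10 falls. Quantile normalisation gave 8 rises and 12 falls. Stx11, a syntaxin of immune secretion, rose by 1.61 ± 0.17. Vamp5 fell by 1.47 and the sorting nexins Snx22 and Snx30 by 1.54 and 1.51.

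Uptake receptors were called at a share (23.5%) near that of all tested genes (21.6%). Of 34 scavenger and apoptotic cell receptors, 2 rose and 6 fell, 5 of the falls at least 2-fold. The counts became 1 rise and 6 falls when WT CpG 2 was left out, and 1 and 4 for WT unstimulated 2. Cd209a, a C-type lectin of cDC2, measured 9.71 and 9.84 in unstimulated DCs and 7.93, 7.6 and 7.8 after CpG, a change of -2.0 ± 0.3 (adjusted p = 0.00124). Cd36, a scavenger receptor for oxidised lipid and dead cells, fell by 1.78, and Havcr2 (Tim-3), a phosphatidylserine receptor, by 1.57. Ly75 (DEC-205), an endocytic lectin, measured 8.48 and 8.41 in unstimulated DCs and 10.52, 10.9 and 10.74 after CpG, a rise of 2.28 ± 0.13 (adjusted p = 2.62e-05). Marco also rose (2.42 ± 0.65, adjusted p = 0.0224), but its call was lost without 3 of the arrays, at 2.28 (adjusted p = 0.0649) without WT CpG 2, 2.43 (adjusted p = 0.0504) without WT CpG 3, and 1.83 (adjusted p = 0.198) without WT unstimulated 2.

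Most markers of cDC1 fell. Of 10 tested, 8 fell and none rose (0 at an unadjusted p under 0.05), and the mean of the list was 9.93 and 10.01 in the unstimulated arrays and 8.56, 8.4 and 8.65 after CpG. In a bulk sample, fewer cells of a type and less RNA per cell cannot be told apart. Xcr1, the chemokine receptor that defines cDC1, measured 7.93 and 8.1 in unstimulated DCs and 5.23, 5.66 and 5.54 after CpG. Tlr3, the sensor of double-stranded RNA in endosomes, measured 10.06 and 9.89 in unstimulated DCs and 7.52, 6.85 and 7.94 after CpG, with the 3 CpG arrays spread over more than 1 unit. Naaa, a lysosomal amidase, fell by 2.02 and Gcsam by 2.0. Of 10 cDC2 markers 2 fell and none rose (0 at an unadjusted p under 0.05), with a list mean of 8.51 and 8.56 before and 8.04, 7.89 and 8.06 after CpG. These counts changed to 1 fall when WT unstimulated 1 was left out and 1 for WT unstimulated 2. Markers of the conventional DC lineage had list means of 10.57 to 10.92, and all 11 lay above the array median in all 5 arrays. Of these 11 markers 2 rose and 5 fell, with changes from -1.54 to 0.92. Once centred, 2 rose and 3 fell.

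The isolates also held signal of other spleen cells. All 15 red pulp macrophage markers lay above the array median in all 5 arrays, with list means of 9.95 to 10.35, and limma called none (0 rises and 1 fall at an unadjusted p under 0.05). B cell markers had a list mean of 7.01 and 6.92 without stimulation and 6.35, 6.29 and 6.28 after CpG. Of 11 tested, 6 fell (54.5%, against 13.4% of all tested genes). Among them 3 fell when WT unstimulated 1 was left out and 3 for WT unstimulated 2. Among them Bank1, a B cell scaffold, fell by 1.56 and Cd22, an inhibitory lectin, by 1.44. The mean of plasmacytoid DC markers was 7.43 to 7.82 over the 5 arrays and that of monocyte markers 7.7 to 7.98. Single markers were called, with 1 rise and 1 fall among 9 tested plasmacytoid DC markers (22.2%, near the 21.6% of all tested genes). Among 10 tested monocyte markers 1 rose and 3 fell. Of the 13 monocyte markers F13a1, Vcan and Chil3 lay below the array median in all 5 arrays, as did Vpreb3 of the 12 B cell markers. T cell markers had means of 5.51 to 5.84, with Cd28 and Themis below the median in every array. The part of these cells in the changes of other genes was not tested.

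Genes of lipid handling changed in both directions. Of 32 tested genes of fatty acid metabolism 6 rose and 7 fell. Lipg, a secreted phospholipase of lipoproteins, measured 5.33 and 4.92 in unstimulated DCs and 8.19, 8.6 and 8.14 after CpG, a 9.1-fold rise (3.19 ± 0.29, adjusted p = 0.0001). Elovl6, which lengthens fatty acids, rose by 1.52 ± 0.19 and Acsl5, which activates them, by 0.84 ± 0.11. The falls included genes of fatty acid import and breakdown. Abcd2, the transporter of very long fatty acids into peroxisomes, measured 6.99 and 7.56 in unstimulated DCs and 4.57, 4.34 and 4.66 after CpG, reaching levels below the array median after CpG, with a change of -2.75 ± 0.43. Crot, which hands shortened fatty acids from peroxisomes to mitochondria, fell by 1.19 and Lipa, the lysosomal acid lipase, by 1.44. Among sterol genes 6 rose and 6 fell of 27. The test gave 2 rises and 2 falls when WT unstimulated 1 was left out, and 3 and 4 for WT unstimulated 2. Once centred, 8 rose and 5 fell. Cyp7b1, an oxysterol hydroxylase that makes an attractant sensed by Gpr183, rose by 1.76 ± 0.22 and Hmgcs1, an early enzyme of cholesterol synthesis, by 1.06 ± 0.15. Dhcr7, the last enzyme of that synthesis, fell by 0.98 and Npc1, which exports cholesterol from lysosomes, by 1.02.

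Genes of lipid mediators had more falls than rises, as did all tested genes (13.4% fell and 8.24% rose). Hpgd, which inactivates prostaglandin E2, measured 10.02 and 10.24 in unstimulated DCs and 7.63, 7.48 and 7.52 after CpG, 6.02-fold lower (change -2.59 ± 0.35, adjusted p = 0.000659). The prostaglandin receptor Ptger3 fell by 1.4 and Ptger4 rose by 0.73 ± 0.13. Alox5ap, needed for leukotriene synthesis, fell by 0.96. Over the 26 genes of this list 2 rose and 6 fell, with a median change of -0.02. The share called was 30.8%, against 21.6% of all tested genes. In refits, 1 rose and 3 fell when WT CpG 1 was left out, 1 and 5 for WT CpG 2, 1 and 3 for WT unstimulated 1, and 1 and 3 for WT unstimulated 2.

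In central metabolism, tricarboxylic acid cycle genes had 11 falls and 2 rises among 31, with a median of -0.26. In single refits 1 rose and 6 fell when WT CpG 1 was left out, 0 and 7 for WT CpG 2, 0 and 10 for WT CpG 3, 0 and 1 for WT unstimulated 1, and 0 and 2 for WT unstimulated 2. The mitochondrial isocitrate dehydrogenase Idh2 measured 8.44 and 8.33 in unstimulated DCs and 7.37, 6.94 and 7.37 after CpG, a change of -1.16 ± 0.19 (adjusted p = 0.00166). Acod1, which makes itaconate, measured 8.14 and 8.89 in unstimulated DCs and 10.76, 10.94 and 8.94 after CpG and did not pass (1.7 ± 0.89, adjusted p = 0.218), and WT CpG 3 lay near the unstimulated arrays. In tryptophan breakdown, Kmo rose by 0.92 ± 0.16 while Haao, further down the same path, fell by 1.28. Mthfd1, of folate metabolism, fell by 0.99, and Slc7a5, an importer of large amino acids, rose by 1.05 ± 0.16. Nos2, which makes nitric oxide, measured 5.66 and 5.53 in unstimulated DCs and 6.51, 6.3 and 5.53 after CpG and did not pass (0.52 ± 0.25, adjusted p = 0.184).

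Redox, metal and nucleotide genes also changed. Of 25 genes of oxidants and antioxidants 6 rose and 3 fell. Of these, 3 rose and 2 fell when WT unstimulated 1 was left out, and 3 and 1 for WT unstimulated 2. With centred arrays 8 rose and 2 fell. Txnrd1, thioredoxin reductase, rose by 1.21 ± 0.16, and Cat, catalase, fell by 1.06. Metal handling had 7 rises and 2 falls among 26. The same list had 4 rises and 2 falls when WT CpG 2 was left out, 3 and 0 for WT unstimulated 1, and 2 and 1 for WT unstimulated 2. Slc30a4, a zinc exporter, rose by 1.61 ± 0.32 and Slc11a2, an iron importer of endosomes, by 1.15 ± 0.21. Of 22 purine genes 3 rose and 5 fell. The counts became 2 rises and 2 falls when WT CpG 1 was left out, 2 and 3 for WT CpG 2, 3 and 3 for WT CpG 3, 0 and 2 for WT unstimulated 1, and 2 and 2 for WT unstimulated 2. Centring the arrays gave 5 rises and 2 falls. Quantile normalisation gave 4 rises and 4 falls. The ATP channel P2rx7, a trigger of the Nlrp3 inflammasome, measured 8.7 and 8.65 in unstimulated DCs and 7.31, 6.95 and 7.17 after CpG (-1.53 ± 0.25), and the nucleotide receptor P2ry6 changed by -1.33 ± 0.18. Among genes known from hypoxia 5 rose and 5 fell of 25, with Ndrg1 at 2.19 ± 0.25, the peptide hormone Adm at 1.55 ± 0.2 and Pfkfb3 at 1.34 ± 0.14. These counts changed to 4 rises and 2 falls when WT CpG 1 was left out, 5 and 2 for WT CpG 3, 4 and 0 for WT unstimulated 1, and 5 and 1 for WT unstimulated 2. After centring, 5 rose and 2 fell. Quantile normalisation gave 5 rises and 3 falls. For Hif1a, the factor behind that response, the change of 0.2 ± 0.16 missed the threshold (adjusted p = 0.442).

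Genes listed under cell death rose more often than they fell, and growth arrest genes changed in both directions. Besides caspases, necroptosis genes and death receptors, the cell death list holds the inhibitors Birc3 and Xiap and also Cd69. Of its 26 tested genes 13 rose and 3 fell, with a median of 0.53. Among them 12 rose and 1 fell when WT CpG 2 was left out, 9 and 1 for WT unstimulated 1, and 8 and 1 for WT unstimulated 2. On centred arrays 13 rose and 1 fell. Quantile normalisation gave 12 rises and 1 fall. Casp4 (caspase-11), the sensor of cytosolic lipopolysaccharide, measured 8.6 and 8.19 in unstimulated DCs and 10.94, 10.65 and 11.11 after CpG, a rise of 2.51 ± 0.18 (adjusted p = 4.49e-05). Apaf1, the platform of the apoptosome, rose by 1.47 ± 0.17, and Birc3, an inhibitor of cell death, by 0.94 ± 0.1. Casp2 fell by 1.2. Of 28 growth arrest genes 6 rose and 4 fell, with Gadd45g at 1.42 ± 0.17, the cyclin-dependent kinase inhibitor Cdkn1a at 1.37 ± 0.2 and Gadd45b at 1.21 ± 0.14. The median change of these 28 genes was -0.02, and at an unadjusted p under 0.05 limma gave 8 rises and 8 falls. The test gave 4 rises and 2 falls when WT CpG 2 was left out, 3 and 2 for WT unstimulated 1, and 5 and 1 for WT unstimulated 2. Centred arrays gave 8 rises and 2 falls. Quantile normalisation gave 8 rises and 3 falls. Btg2, an antiproliferative gene, changed the other way (-1.06 ± 0.16).

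All called genes of DNA replication were falls. Of 42 tested, 20 fell and none rose (1 at an unadjusted p under 0.05), with a median of -0.46, and 13 fell with centred arrays. In refits, 0 rose and 11 fell when WT CpG 1 was left out, 1 and 17 for WT CpG 2, 0 and 8 for WT unstimulated 1, and 0 and 9 for WT unstimulated 2. Mcm2 and Mcm5, subunits of the replicative helicase, fell by 1.12 and 1.08, Gins1, which joins that helicase, by 1.06 and Rfc1, part of the clamp loader, by 0.89. Cdc6, which loads the helicase, measured 6.98 and 6.96 in unstimulated DCs and 5.99, 5.63 and 6.03 after CpG. Chromatin modifiers showed 4 rises and 17 falls among 56, but 5 and 8 with centred arrays. In single refits 2 rose and 10 fell when WT CpG 1 was left out, 4 and 9 for WT CpG 2, 3 and 10 for WT CpG 3, 2 and 7 for WT unstimulated 1, and 1 and 3 for WT unstimulated 2. Tet2, which oxidises methylcytosine, rose by 1.31 ± 0.18. The maintenance methyltransferase Dnmt1 fell by 1.08, the deacetylase Hdac5 by 1.04 and the demethylase Kdm7a by 1.47.

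Few genes of aminoacyl-tRNA synthetases and ribosomal proteins were called. None of 18 aminoacyl-tRNA synthetases was called, with 0 of them risen and 0 fallen, and 1 of 51 ribosomal protein genes was. That gene was Rps27, which rose by 0.51 ± 0.15, and its call was lost without each of the 5 arrays, at 0.54 (adjusted p = 0.066) without WT CpG 1, 0.53 (adjusted p = 0.0662) without WT CpG 2, 0.48 (adjusted p = 0.0867) without WT CpG 3, 0.55 (adjusted p = 0.122) without WT unstimulated 1, and 0.48 (adjusted p = 0.167) without WT unstimulated 2. At an unadjusted p under 0.05, limma gave 0 rises and 2 falls among the synthetases, quantile normalisation gave 1 fall and leaving out WT CpG 2 gave 2. The smallest p was that of Farsb (-0.41 ± 0.14, adjusted p = 0.0543). Translation factors were called at 17.9%, near the 21.6% of all tested genes, with 2 rises and 5 falls among 39. Of these, 2 rose and 3 fell when WT CpG 1 was left out, 2 and 3 for WT unstimulated 1, and 2 and 2 for WT unstimulated 2. Once centred, 2 rose and 3 fell. Eef2k, a kinase that slows elongation, fell by 1.5, and Eif2ak3 (PERK), the unfolded protein kinase, by 1.23. Eif1a, which helps find the start codon, rose by 0.77 ± 0.13.

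**Figure D4:**
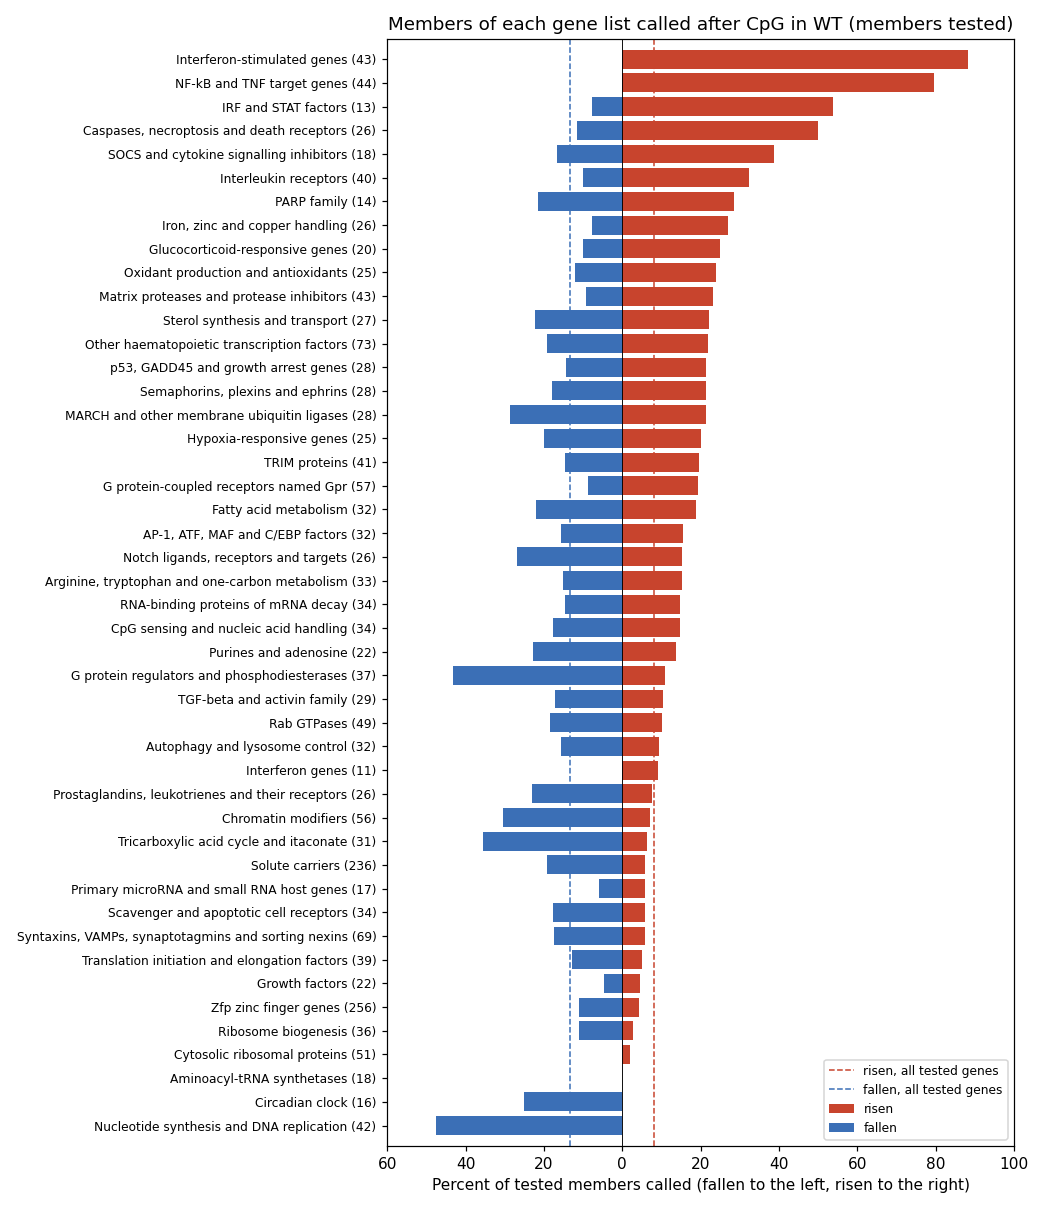
Percent of the tested members of each gene list that rose (red, to the right) or fell (blue, to the left) after CpG, for lists of at least 10 tested members (number in brackets), 1 list left out; dashed lines give the share of all tested genes, 8.24% risen and 13.4% fallen. Interferon-stimulated and NF-kB lists stand at the top with no fall, and DNA replication at the bottom with no rise.

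Changed genes lay side by side in places. There were 23 runs of at least 4 neighbouring tested genes called in the same direction, 13 risen and 10 fallen, which held 116 genes, and the longest had 9. One of these was the Ifi200 cluster on chromosome 1, sensors of DNA that resemble one another closely, so that probes may share signal. Within it Ifi204 rose by 2.6 ± 0.31, Ifi209 by 1.59 ± 0.29, Ifi207 by 1.41 ± 0.21 and Ifi205 by 1.15 ± 0.16. Another run of 9, on chromosome 19, held Cd274 and Pdcd1lg2 together with unrelated genes such as Rcl1 (1.24 ± 0.18), of ribosomal RNA processing, Insl6 (1.65 ± 0.24) and Ric1 (0.82 ± 0.13). Also on chromosome 19 lay the Ms4a cluster of membrane proteins, with Ms4a6d at 2.43 ± 0.38 and Ms4a4b at 1.74 ± 0.33, and the Ifit genes. On chromosome 2 Il2ra, Il15ra and Pfkfb3 rose as neighbours. On chromosome 14 Mmp14, a membrane protease that degrades collagen, rose by 2.21 ± 0.18 beside Mrpl52 (0.93 ± 0.14), and Phf11c by 2.22 ± 0.39 among its near-identical relatives. Fallen runs included 7 genes on chromosome 5, with Lamtor4 (-1.02 ± 0.14), of lysosomal mTORC1 control, and Map11 (-1.3 ± 0.14). On chromosome 9 Ccpg1, a receptor for autophagy of the endoplasmic reticulum, fell by 1.46 next to the ubiquitin ligase Nedd4, which fell by 1.49. Overlapping transcripts in such runs cannot be told apart by probes on shared bases.

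Large changes of genes not described above were of varied kinds. The largest rise overall was that of a clone, 1700011B04Rik, at 4.29 ± 0.65, named after its value was seen. Mab21l3 measured 8.93 and 8.58 in unstimulated DCs and 11.45, 11.4 and 11.52 after CpG, a rise of 2.71 ± 0.16 with the CpG arrays spanning 0.13. Car13, a cytosolic carbonic anhydrase, rose by 3.3 ± 0.29, Muc1, a membrane mucin, by 3.08 ± 0.25, and Kdr, the receptor for vascular endothelial growth factor, by 2.82 ± 0.35. Csta3, a cystatin inhibitor of cathepsins, rose by 3.03 ± 0.27 and Stfa2l1, of the same closely related family, by 2.49 ± 0.3, and their probes may share signal. Atp11a, a phospholipid flippase, rose by 2.07 ± 0.13 and Pik3r5, a subunit of PI3 kinase gamma, by 2.02 ± 0.14. Among the falls, Hepacam2 measured 8.27 and 7.91 in unstimulated DCs and 5.45, 4.86 and 4.97 after CpG, so that all 3 CpG arrays were below the array median. Lrrk2, a kinase of lysosomal stress, measured 9.64 and 10.11 in unstimulated DCs and 7.11, 7.33 and 7.05 after CpG, a change of -2.71 ± 0.27 (adjusted p = 0.000165). Dipk1a fell by 2.75, the potassium channel Kcnj16 by 2.54, Prr5, of mTORC2, by 2.32 and Tifab, an inhibitor of Traf6 signalling, by 2.12. A further 78 risen and 67 fallen genes were predicted genes, clones, small RNAs or variable segments and are counted only.

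The arrays of a group agreed closely except where WT CpG 3 stood apart. Over tested genes, arrays of the same WT group correlated at 0.98 to 0.989 (4 pairs), and unstimulated with CpG arrays at 0.929 to 0.938 (6 pairs), across genes, which are not independent replicates. In 85.1% of called genes the 3 CpG arrays spanned under 0.5. WT CpG 3 is the only WT array whose title number is above 20. It lay at least 1 below both other CpG arrays in 54 genes, of which 7 rose, whereas WT CpG 1 did so in 1 gene and WT CpG 2 in 3. The neutrophil genes S100a8, S100a9, Retnlg and Mmp9 are among the 54 (named after their values were seen). The mean of 16 neutrophil markers was 6.78 and 7.25 in the unstimulated arrays and 7.94, 8.35 and 6.82 after CpG, and Mpo was below the array median in all 5. The part of these cells in the results below was not tested.

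The genes in question were chosen after their values were seen. Mrgpra2a, an orphan receptor, measured 7.77 and 7.78 in unstimulated DCs and 11.27, 11.61 and 8.37 after CpG and rose by 2.64 ± 0.83 (adjusted p = 0.045), a call lost without 4 arrays, at 2.22 (adjusted p = 0.14) without WT CpG 1, 2.04 (adjusted p = 0.136) without WT CpG 2, 2.63 (adjusted p = 0.181) without WT unstimulated 1, and 2.65 (adjusted p = 0.177) without WT unstimulated 2. Lcn2, an iron-scavenging lipocalin, measured 6.73 and 6.66 in unstimulated DCs and 9.24, 9.81 and 7.71 after CpG, and its rise of 2.22 ± 0.61 was lost in the same way, at 2.07 (adjusted p = 0.0773) without WT CpG 1, 1.78 (adjusted p = 0.0766) without WT CpG 2, 2.26 (adjusted p = 0.119) without WT unstimulated 1, and 2.19 (adjusted p = 0.129) without WT unstimulated 2. Saa3, an acute-phase protein, measured 6.0 and 5.46 in unstimulated DCs and 8.47, 9.21 and 6.33 after CpG and rose by 2.28 ± 0.68, and its values were 2.04 (adjusted p = 0.108) without WT CpG 1, 1.67 (adjusted p = 0.1) without WT CpG 2, 2.54 (adjusted p = 0.112) without WT unstimulated 1, and 2.01 (adjusted p = 0.204) without WT unstimulated 2. Gpr84, a receptor for medium-chain fatty acids, measured 6.19 and 6.16 in unstimulated DCs and 8.47, 8.54 and 7.05 after CpG, a rise of 1.84 ± 0.4, and had 1.86 (adjusted p = 0.06) without WT unstimulated 1, and 1.82 (adjusted p = 0.0652) without WT unstimulated 2. Mmp8, neutrophil collagenase, measured 6.44 and 6.91 in unstimulated DCs and 8.94, 9.84 and 7.12 after CpG and did not pass (1.96 ± 0.7, adjusted p = 0.0723). In the other direction, WT CpG 3 was at least 1 above the other CpG arrays in 5 genes. One was Ifit1bl1, an Ifit relative, at 7.01 and 6.6 in unstimulated DCs and 9.3, 9.23 and 10.45 after CpG, whose rise of 2.85 ± 0.65 gave 3.06 (adjusted p = 0.0549) without WT unstimulated 1, and 2.65 (adjusted p = 0.0884) without WT unstimulated 2.

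**Figure D5:**
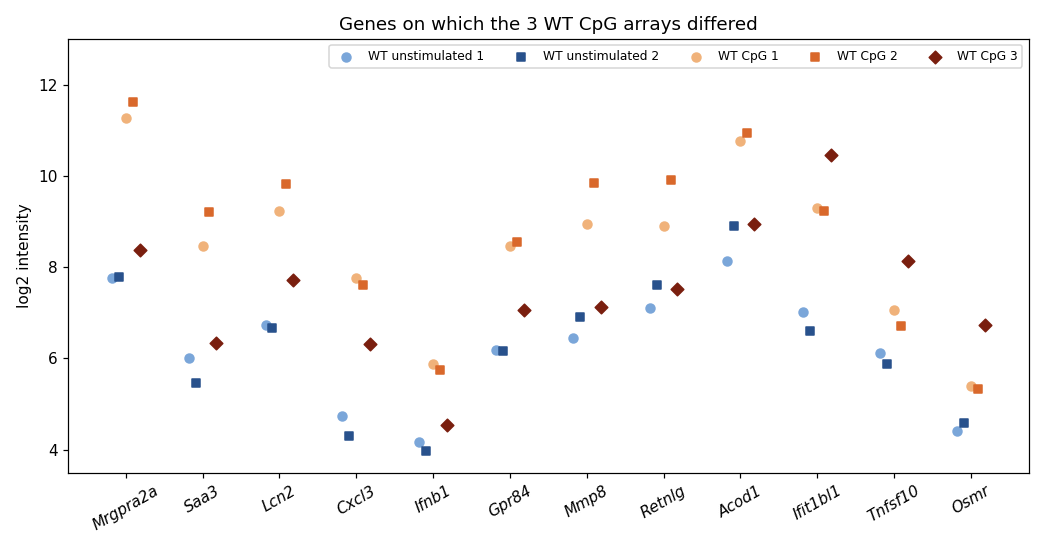
Log2 intensity in each WT array of 12 genes on which the 3 CpG arrays differed (blue, unstimulated; orange and dark red, CpG). WT CpG 3 (diamonds) lies near the unstimulated arrays for Mrgpra2a, Saa3, Mmp8 and Retnlg, and above the other CpG arrays for Ifit1bl1, Tnfsf10 and Osmr.

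The CpG change of WT DCs was set beside that of DKO DCs by testing the difference of both effects. WT arrays spanned 5.8 to 6.59 for C3ar1 and DKO arrays 5.27 to 5.64, and for C5ar1 the spans were 5.51 to 7.32 and 4.42 to 4.99. The labelled genotypes thus did not overlap, though the sources used here do not place the probes relative to the deletions. The mean of 3 Y-linked genes (Eif2s3y, Kdm5d and Uty) was above 6 in 0 of 5 WT and 3 of 5 DKO arrays, and its part in the DKO values was not tested. CpG changed 1372 genes (10.3%) in DKO DCs, and of the 2873 genes called in WT 97.8% had a change of the same sign there. The sizes side by side were 3.89 ± 0.36 in WT and 3.89 ± 0.36 in DKO for Tnip3, 3.09 ± 0.27 and 3.06 ± 0.27 for Il6, -1.32 ± 0.16 and -0.91 ± 0.16 for Irf8 and -2.54 ± 0.18 and -1.71 ± 0.18 for Xcr1. Differences of the effects (DKO minus WT) were 0.01 ± 0.51, -0.03 ± 0.38, 0.41 ± 0.23 and 0.83 ± 0.25, none of which passed (adjusted p = 0.999, 0.999, 0.913 and 0.76). The test called 1 of the 13298 genes (0.00752%), with 752 at an unadjusted p under 0.05 (5.65%). That gene was Tarm1, a receptor of activated myeloid cells. In WT DCs the values were 7.51 and 7.43 in unstimulated DCs and 10.37, 10.35 and 10.25 after CpG, a rise of 2.86 ± 0.18 (adjusted p = 3.42e-05). In DKO DCs they were 7.51 and 7.39 in unstimulated DCs and 8.16, 7.64 and 8.36 after CpG, a change of 0.6 ± 0.18 (adjusted p = 0.0606). The effects differed by -2.25 ± 0.26 (adjusted p = 0.0485). Every WT CpG array was above every DKO CpG array. The difference no longer passed without any 1 WT array, with adjusted p from 0.0836 without WT CpG 3 to 0.615 without WT unstimulated 2, at sizes of -2.21 to -2.29. It also missed the threshold after quantile normalisation (adjusted p = 0.0553) and in the fit with the title series as a block term (adjusted p = 0.0662). All arrays, those of the DKO mice included, share the estimate of spread behind each test above. From the 5 WT arrays alone 3505 genes were called.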

How the data were processed

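The values are those of Affymetrix Mouse Gene 2.0 ST arrays, 1 per sample. The deposited log2 values come from RMA, run by the authors in Affymetrix Expression Console according to the submitters' processing notes. The sources used here give no version or build, nor whether all arrays were normalised together. RMA forces arrays towards 1 distribution, and sorted values of the WT arrays still differed by up to 0.208. The labels name a kit for a first batch without assigning samples to it.

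Of 41345 probe sets, 23521 had 1 symbol, 1814 several and 16010 none. Of these 23521, 23328 matched a gene identifier of the reference table (GRCm38.p6), which gave 21994 genes, and for 1077 genes the probe set with the highest mean over 10 arrays was taken. No detection calls were used, so values near the array medians (5.50 to 5.56 in WT) may be background. The number of arrays limits the precision.

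Group means of 4 groups were fitted with limma 3.58.1 (lmFit, eBayes) in R 4.3.3, two-sided, Benjamini-Hochberg over 13298 genes. On simulated data with WT group sizes, 77% of 100 genes changed 2-fold and 99% of 100 changed 4-fold were recovered, with 5 false calls. In the real data 2873 genes were called, far more than were changed in the simulation, so these shares may not hold for them. Tested on alternatives were the arrays in the fit, the variance prior, the filter, the probe set, the scaling, the title series (numbers under 20 against 20 and over) and each WT array left out. Python 3.11.15 and matplotlib 3.10.9 served for the tables and plots.

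The members, the 49 gene lists and the alternatives were chosen with earlier results of these data known. The result of 1 of these lists is not reported here. Named genes are the 25 largest rises and falls, the 10 smallest p-values, up to 5 called members of each list with the smallest p and up to 3 of the minority direction, members of neighbour runs, genes called in the difference of effects, and genes fixed by name. Genes outside this rule are marked in the text. Promoter shares count a gene if any of its listed promoters holds the motif.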

Additional observations from a re-analysis of the deposited data

Results flagged for a closer look

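The CpG effect on Tarm1 was called as different between the genotypes, a call that did not hold in every refit. It was 2.86 ± 0.18 in WT and 0.6 ± 0.18 in DKO DCs, and the difference (DKO minus WT) was -2.25 ± 0.26 (adjusted p = 0.0485, interaction term in limma). Tarm1 was the only gene of 13298 that this test called. The difference missed the threshold after quantile normalisation (adjusted p = 0.0553) and with the title series as a block term (adjusted p = 0.0662). It also missed the threshold without any 1 WT CpG array (adjusted p from 0.0836 to 0.293). Y-linked genes were above 6 on average in 3 of 5 DKO and 0 of 5 WT arrays, and their part was not tested. Groups of 2 and 3 arrays are too small to test single arrays as outliers.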

How the results depend on the processing

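Over the 8 alternatives that kept all 5 WT arrays, 2514 to 3505 genes were called in WT, against 2873. Leaving out 1 WT array gave 1273 to 2285 calls, 514 to 922 of them rises and 759 to 1397 falls. With centred arrays 1699 rose and 1157 fell. Counts of at least 2-fold changes (668 to 822 with 1 WT array left out) and of calls in DKO stayed within 1.5 times under every alternative run. No DKO array was left out in turn. The difference of the effects had 1 call, and 0 with quantile normalisation, 0 when the title series formed a block and 0 to 1 with 1 WT array left out (the call without WT CpG 3 was not Tarm1). No paired analysis was possible because the numbers in the titles are not shared between groups. Counts within the lists moved by over 1.5 times in 71 of 122 cases without WT unstimulated 2 and in 62 without WT unstimulated 1. Spi1, which did not pass, changed sign with centred arrays (0.07), and ranged from -0.13 to 0.00 with 1 WT array left out. Of the genes named, Ifnb1, Il10, Lcn2, Marco, Mrgpra2a and Saa3 were no longer called with a trended and robust variance prior (adjusted p = 0.0606 to 0.114), and the other 221 kept their side of the threshold. Values near the array median may be background, which limits what can be said of weak genes.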

Other observations

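Proteases, ubiquitin ligases and transporters also changed in WT DCs. Of 43 matrix proteases and protease inhibitors 10 rose and 4 fell, a share called of 32.6% against 21.6% of all tested genes. The same list had 6 rises and 4 falls when WT unstimulated 1 was left out, and 4 and 2 for WT unstimulated 2. Mmp25, a membrane-anchored protease, rose by 1.86 ± 0.22 and the elastase inhibitor Serpinb1a by 0.93 ± 0.13. Other serpins fell: Serpinb8, an intracellular inhibitor, measured 6.98 and 7.16 in unstimulated DCs and 4.8, 4.61 and 4.79 after CpG (-2.34 ± 0.27, adjusted p = 0.000302) and Serpinb2, plasminogen activator inhibitor type 2, fell by 1.72. Of 28 membrane-linked ubiquitin ligases 6 rose and 8 fell. The counts became 3 rises and 7 falls when WT unstimulated 1 was left out, and 2 and 6 for WT unstimulated 2. Rnf144b fell by 1.86 and Cbl, which marks activated receptors for degradation, by 0.89, and Rnf19b rose by 0.65 ± 0.11. Solute carriers were called at a share near the 21.6% of all tested genes. They had 14 rises and 45 falls among 236 (26 and 35 with centred arrays). These counts changed to 6 rises and 21 falls when WT unstimulated 1 was left out, and 6 and 18 for WT unstimulated 2. Slc26a9, an anion transporter, rose by 2.13 ± 0.31 and Slc16a7, a monocarboxylate transporter, fell by 1.52.

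Counts for clock and glucocorticoid-responsive genes moved with the scaling. The share of clock genes called was near the 21.6% of all tested genes. Of 16 clock genes none rose and 4 fell in limma, against 1 rise and 0 falls with centred arrays. Among them 1 fell when WT CpG 1 was left out, 2 for WT CpG 2, 1 for WT CpG 3, 2 for WT unstimulated 1, and 0 for WT unstimulated 2. Of 20 glucocorticoid-responsive genes 5 rose and 2 fell (7 and 0 with centred arrays). The test gave 3 rises and 1 fall when WT CpG 1 was left out, 3 and 1 for WT CpG 2, 4 and 0 for WT CpG 3, 3 and 0 for WT unstimulated 1, and 1 and 0 for WT unstimulated 2. Quantile normalisation gave 6 rises and 1 fall. In autophagy and lysosome control 3 of 32 rose and 5 fell, a share called near the 21.6% of all tested genes. In refits, 2 rose and 3 fell when WT unstimulated 1 was left out, and 1 and 2 for WT unstimulated 2. With centred arrays 4 rose and 4 fell. Irgm1, an interferon-induced GTPase that guards vacuoles, rose by 1.61 ± 0.22, and Ulk2, a kinase that starts autophagy, fell by 1.12.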
